A study of Mus musculus with 8 samples.

Results

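Regulatory T (Treg) cells of tissues make soluble products that act on the surrounding tissue as well as on other immune cells, and 6 genes of this kind are described here: Csf1, Csf2, Areg, Hbegf, Penk and Furin. They were taken by gene symbol from the deposited RNA-seq count table, and each of the 6 matched 1 of its 19191 rows and passed the filter on low counts that kept 14274 genes. The cells were sorted by flow cytometry as Treg cells from the lamina propria, the connective tissue under the epithelium, of the large intestine of C57BL/6 mice whose ages the labels do not give. The KO libraries came from Ahrf/- Foxp3Yfp-Cre mice, which carry a floxed and a null allele of Ahr. This gene encodes the aryl hydrocarbon receptor, which switches on target genes when it binds small molecules from food, microbes or pollutants. The WT libraries came from Ahrf/+ Foxp3Yfp-Cre mice, which carry a floxed and an intact allele. Both groups thus carried Cre recombinase made from the Foxp3 locus, so Treg cells of the WT group kept 1 intact allele, and cells outside the Foxp3 lineage differed in Ahr gene dose as well. Each genotype had 2 RNA-seq libraries, and because the labels do not tie these to separate animals, the spread behind each p-value may be technical. The 4 ATAC-seq samples of the series are not analysed here.

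The 6 products cover several ways by which a T cell can act on tissue. Csf1 and Csf2 encode the macrophage and the granulocyte-macrophage colony-stimulating factors, which keep alive and activate macrophages, monocytes and dendritic cells through the receptors encoded by Csf1r and by Csf2ra and Csf2rb. Areg and Hbegf encode amphiregulin and heparin-binding EGF-like growth factor, membrane-anchored ligands of the EGF receptor family that are released by proteases such as ADAM17 and drive epithelial growth and wound repair, and amphiregulin is well known as a repair product of tissue Treg cells. Penk encodes proenkephalin, the precursor that is cut into enkephalin opioid peptides, and furin is a protease of the secretory pathway that cuts many precursor proteins, among them that of TGF-beta 1, into their active forms.

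Promoters are shown for Csf1, whose level differed most between the genotypes, for Areg, the best-known repair product of the group, and for Furin, which has 2 listed starts. RefSeq promoter windows on build GRCm38.p6 were taken for 4 of the 6 genes (Csf1, Csf2, Areg and Furin). Each ran from 250 bases before to 50 bases after a transcription start. No window was taken for Hbegf or Penk, and nothing is concluded here on their promoters. The windows are given 5′ to 3′ on the strand of the gene. Capitals mark the core of the Ahr response element, GCGTG on either strand (written CACGC when it lies on the other strand), the TATA box TATAAA on either strand and the cyclic AMP response element TGACGTCA, which reads the same on both strands. The Ahr core was chosen for the pathway, the other motifs after the sequences had been seen, and no 2 of the marked motifs overlap.
Csf1, chr3:107760420-107760719, minus strand: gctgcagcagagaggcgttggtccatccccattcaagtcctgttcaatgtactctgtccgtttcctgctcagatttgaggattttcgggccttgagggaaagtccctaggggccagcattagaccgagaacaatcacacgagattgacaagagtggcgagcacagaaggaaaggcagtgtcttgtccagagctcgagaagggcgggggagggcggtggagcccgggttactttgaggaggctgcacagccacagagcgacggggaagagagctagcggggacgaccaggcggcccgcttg
Areg, chr5:91139349-91139648, plus strand: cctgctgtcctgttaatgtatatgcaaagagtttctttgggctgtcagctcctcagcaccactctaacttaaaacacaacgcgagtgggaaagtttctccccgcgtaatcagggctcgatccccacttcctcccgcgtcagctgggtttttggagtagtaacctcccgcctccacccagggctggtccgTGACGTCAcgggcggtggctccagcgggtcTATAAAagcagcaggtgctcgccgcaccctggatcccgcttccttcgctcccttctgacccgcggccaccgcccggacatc
Furin, upstream start, chr7:80405387-80405686, minus strand: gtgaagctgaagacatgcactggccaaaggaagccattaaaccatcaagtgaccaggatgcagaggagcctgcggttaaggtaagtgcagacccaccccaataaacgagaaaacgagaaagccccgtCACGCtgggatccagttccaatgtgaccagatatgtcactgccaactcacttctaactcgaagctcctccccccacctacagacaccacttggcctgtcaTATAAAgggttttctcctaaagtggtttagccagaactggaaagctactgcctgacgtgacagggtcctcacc
Furin, downstream start, chr7:80402763-80403062, minus strand: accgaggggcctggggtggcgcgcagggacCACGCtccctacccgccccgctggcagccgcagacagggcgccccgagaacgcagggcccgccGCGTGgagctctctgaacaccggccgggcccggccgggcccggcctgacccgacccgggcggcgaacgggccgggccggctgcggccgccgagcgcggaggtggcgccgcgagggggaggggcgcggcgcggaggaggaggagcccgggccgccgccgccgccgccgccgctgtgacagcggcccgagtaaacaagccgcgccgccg

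The Ahr core letters stood in both Furin windows, at 123 bases before the upstream start and at 220 and 157 bases before the downstream start. They stood in none of the Csf1, Csf2 and Areg windows. Of all 32851 RefSeq promoter windows of this length, 32.4% held the core, so its presence in a window is common. The Areg window held a cyclic AMP response element 61 bases before the start, a motif found in 1.79% of windows, and a TATA box 31 bases before it. TATA letters were also found in the upstream Furin window, 23 bases before the start, and in 13.6% of all windows. A match is a description of letters and not of binding, and the absence of these letters says nothing of sites elsewhere.

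Levels are given in CPM, a count scaled to a library of 1000000 counts over the tested genes with edgeR's TMM factor. The total gene count was 30993483 and 53438828 in the KO libraries, against 26862922 and 62402450 in the WT libraries, the first value of each pair being replicate 1. Counts over the whole Ahr gene were 536 and 518 CPM in KO and 581 and 539 CPM in WT, and because a transcript that lacks only an exon still yields counts, this checks neither the deletion nor the labels. The Treg marker Foxp3 stood at 250 and 259 CPM in KO and 280 and 252 CPM in WT, and the 7 Treg markers found in the table summed to 7078 and 6554 CPM in KO and 6361 and 6121 CPM in WT, here per library total. Much of these sums was Ctla4 (3735 and 3581 CPM in KO, 3195 and 3107 CPM in WT). Of the 7 markers, 4 had a positive and 3 a negative log2 fold change, Foxp3 among the latter. Replicate 2 of both genotypes held more of the 8 stromal and endothelial markers (summed 179 CPM in KO and 177 CPM in WT, against 115 CPM in KO and 120 CPM in WT for replicate 1) and more of the immunoglobulin joining chain gene Igj (339 CPM in KO and 254 CPM in WT, against 130 CPM in KO and 122 CPM in WT for replicate 1, also per library total). Much of the stromal and endothelial sums was Pecam1, which changed little between replicates (replicates 1 and 2: 104 and 106 CPM in KO, 107 and 115 CPM in WT). The collagen gene Col3a1 in the same list rose far more, from 3.97 to 44.3 CPM in KO and from 5.55 to 38.5 CPM in WT. Replicate 2 held less of the 10 macrophage and monocyte markers (47.6 CPM in KO and 67.9 CPM in WT, against 104 CPM in KO and 141 CPM in WT for replicate 1). In bulk RNA, fewer cells of a type and less RNA per cell cannot be told apart. None of the 6 genes overlaps another gene of the table in mm9, the build of its positions.

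None of the 6 genes passed the main test, edgeR's quasi-likelihood F-test with Benjamini-Hochberg adjustment, which called 0% of the 14274 genes tested at an adjusted p under 0.05. At an unadjusted p under 0.05 it held 1 of the 6 genes, Csf1, against 2.85% of all tested genes (407 genes). DESeq2 called 1 of the 6, again Csf1, against 0.267% of the 17996 genes that it gave an adjusted p (48 genes), and limma-voom called none of the 6 and 0% of all genes. The authors' deposited table has 0.344% of its rows under the same threshold and none of the 6 among them. All 6 had a positive log2 fold change of KO over WT, against 52.0% of all tested genes, whose median was 0.01. Both KO libraries lay above both WT libraries for 3 of the 6 genes, Csf1, Csf2 and Areg, against 13.5% of all tested genes.

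**Figure D1:**
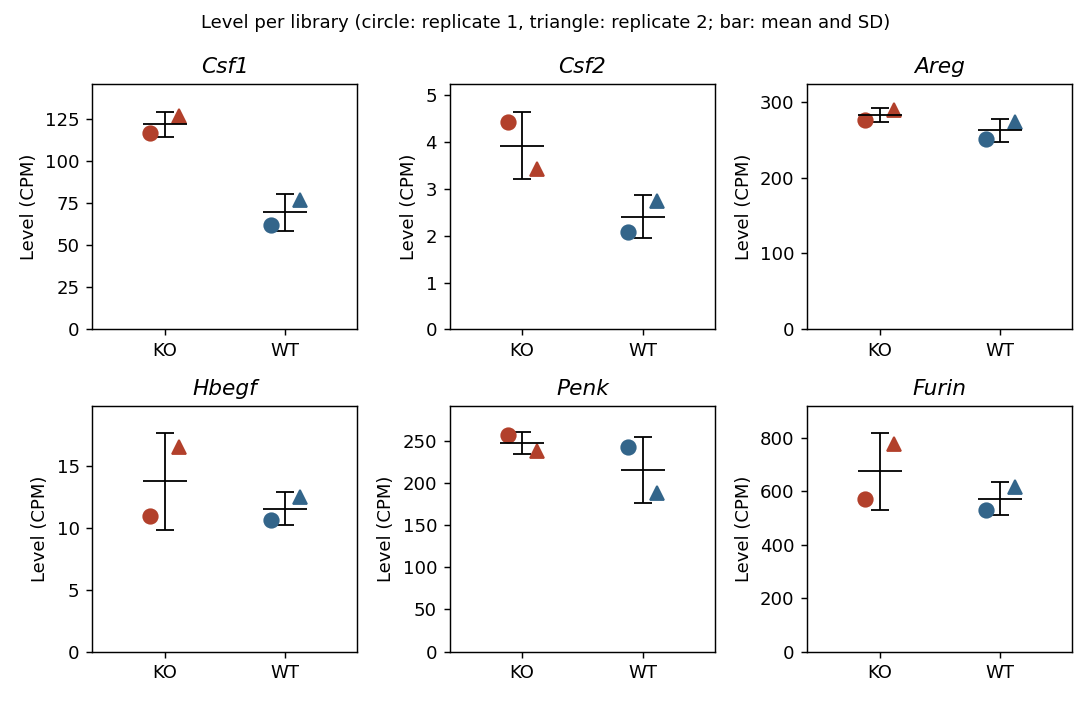
Level of each gene in CPM (linear axis from 0) in the KO (red, left) and WT (blue, right) libraries, with replicate 1 as circles, replicate 2 as triangles, and the mean and SD of 2 libraries as bars. The KO libraries of Csf1 sit at 116 and 127 CPM and its WT libraries at 61.7 and 77.0 CPM, while the groups of Hbegf, Penk and Furin overlap.

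Csf1, the macrophage colony-stimulating factor gene (chromosome 3, 107543966 to 107563387, minus strand, mm9), was the gene of the group with the clearest difference. It stood at 116 and 127 CPM in the KO libraries, against 61.7 and 77.0 CPM in the WT libraries. Both KO libraries lay well above both WT libraries, and the gap between the groups was wider than the distance between replicates of either. The means were 122 ± 7.39 CPM in KO and 69.4 ± 10.8 CPM in WT (SD, n = 2 each), a 1.75-fold higher level in KO. The log2 fold change was 0.81 ± 0.14 (standard error) with a 95% interval from 0.47 to 1.15. Its value was 0.91 within replicate 1 and 0.72 within replicate 2. Here and below, such values pair libraries of equal number, which the labels do not tie together. With 1658 to 6706 counts per library, counting error was small beside these differences, the exact 95% Poisson interval being 113 to 120 CPM in KO replicate 1 and 58.8 to 64.8 CPM in WT replicate 1. Such intervals hold counting error alone, with no part for differences between libraries. PCR copies were not told apart by molecular identifiers, so the intervals may be too narrow.

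By unadjusted p, Csf1 ranked 20 among the 14274 tested genes, with an edgeR p of 0.00135 and an adjusted p of 0.856. DESeq2 called it higher (log2 fold change 0.81, adjusted p = 2.69e-04), and the authors' deposited table gives it an adjusted p of 0.0565. The DESeq2 call was kept without KO replicate 1 (adjusted p = 0.0398) and without WT replicate 2 (7.94e-04). It was lost without KO replicate 2 (adjusted p = 0.739) and without WT replicate 1 (0.177), while the log2 fold change stayed between 0.66 and 0.97 in these 4 DESeq2 fits. In each of these fits the genotype left with 1 library borrows its spread from the other genotype.

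Markers of other cell types that make or answer to Csf1 were detected in the same libraries. Csf1r, the receptor for this factor and a defining gene of macrophages, stood at 24.7 and 12.6 CPM in KO and 36.0 and 16.2 CPM in WT, with a log2 fold change of -0.48 ± 0.46. Of the 10 macrophage and monocyte markers tested, 1 had a positive and 9 a negative log2 fold change, and none passed edgeR or DESeq2. Their sums were 104 and 47.6 CPM in KO and 141 and 67.9 CPM in WT, lower in KO within both replicates while the ranges of the groups overlap. The 8 stromal and endothelial markers summed to 115 to 179 CPM in KO and 120 to 177 CPM in WT, ranges that overlap. The 9 epithelial markers summed to 27.5 and 40.3 CPM in KO and 27.4 and 28.0 CPM in WT. Of the 8 epithelial markers tested, 6 had a positive and 2 a negative log2 fold change. The keratin gene Krt8 had 31 and 204 counts in KO and 0 and 8 counts in WT, called higher by DESeq2 (adjusted p = 8.00e-04) and under the threshold in the authors' deposited table (5.35e-05), and Krt19 had 17 and 129 counts in KO and 4 and 0 counts in WT (DESeq2 adjusted p = 0.138). Epcam, the epithelial adhesion gene, stood at 12.2 and 13.7 CPM in KO and 14.7 and 14.5 CPM in WT, and Krt18, which encodes the keratin partner of Krt8, at 1.43 and 1.53 CPM in KO and 2.01 and 2.26 CPM in WT, and neither gene was called although both KO libraries lay below both WT libraries. The part of these cells in the level of Csf1 was not tested.

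**Figure D2:**
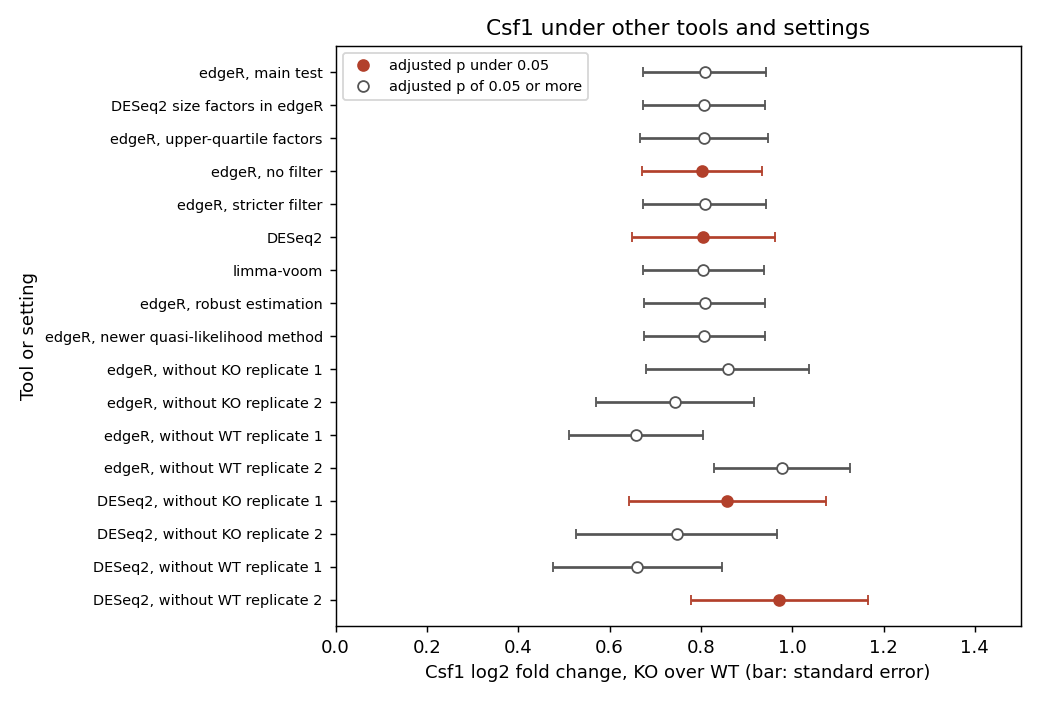
Log2 fold change of Csf1, KO over WT (horizontal axis), with its standard error, under the tools and settings named in the rows, filled red where the adjusted p was under 0.05. The values run from 0.66 to 0.98 and all lie above 0, while the call depends on the tool and on the libraries kept.

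Csf2, the granulocyte-macrophage colony-stimulating factor gene (chromosome 11, 54060773 to 54063169, minus strand), had few counts. There were 136 and 181 counts in the KO libraries, or 4.43 and 3.42 CPM, against 56 and 174 counts in the WT libraries, or 2.09 and 2.73 CPM. Both KO libraries lay above both WT libraries, but KO replicate 2 and WT replicate 2 were close, with exact 95% Poisson intervals of 2.94 to 3.96 CPM and 2.34 to 3.17 CPM that overlap. The means were 3.93 ± 0.713 CPM in KO and 2.41 ± 0.458 CPM in WT (SD, n = 2 each). The log2 fold change was 0.69 ± 0.28, with a 95% interval from -0.02 to 1.40 and values of 1.07 within replicate 1 and 0.32 within replicate 2. It did not pass edgeR (adjusted p = 1.00, unadjusted 0.0544) or DESeq2 (adjusted p = 1.00). The interval holds ratios of KO over WT from 0.987 to 2.64.

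The colony-stimulating factors and related ligands, a list that includes Csf1 and Csf2, did not share a direction. Of the 8 listed genes 5 were tested, 3 with a positive (Csf1, Csf2 and Kitl) and 2 with a negative log2 fold change (Flt3l and Il5). The median was 0.59, and apart from Csf1 in DESeq2 none passed edgeR or DESeq2. Kitl, the ligand of the receptor Kit, stood at 3.23 and 2.78 CPM in KO and 1.53 and 2.42 CPM in WT (log2 fold change 0.59 ± 0.33). Flt3l, the growth factor of dendritic cell precursors, stood at 36.2 and 37.2 CPM in KO and 35.8 and 43.6 CPM in WT (-0.12 ± 0.13), and Il5, the eosinophil growth factor, had -0.29 ± 0.36. Il34, which encodes the other ligand of the Csf1 receptor, had 1 and 7 counts in KO and 0 and 12 counts in WT, so Csf1 was the ligand of that receptor detected in quantity. Il3 and Csf3 each had 16 or fewer counts in any library and were not tested.

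Of the 9 receptors for these factors 8 were tested, 4 with a positive and 4 with a negative log2 fold change (median -0.04). Kit, the stem cell factor receptor of mast cells and progenitors, stood at 6.16 and 4.92 CPM in KO, against 12.3 and 10.7 CPM in WT. The groups did not overlap, and the log2 fold change was -1.05 ± 0.18, called by DESeq2 (adjusted p = 0.0294) and under the threshold in the authors' deposited table (adjusted p = 0.00738), but not called by edgeR (adjusted p = 0.856) and lost by DESeq2 without any 1 of the 4 libraries (at least 0.263). Of the other mast cell and basophil markers found in the table, Mcpt1 had 31 counts in WT replicate 2 and 0 in the other libraries, Cpa3, Mcpt2 and Ms4a2 had at most 13 counts in any library, and Fcer1a had 0 in all 4. The part of mast cells in the level of Kit was not tested. Il3ra, the IL-3 receptor alpha chain gene, stood at 12.5 and 13.8 CPM in KO and 10.4 and 10.1 CPM in WT (0.36 ± 0.13, edgeR unadjusted p = 0.0328, adjusted p = 1.00). The Csf2 receptor chains Csf2ra and Csf2rb had 0.20 ± 0.31 and 0.19 ± 0.43, and both were lower in replicate 2 than in replicate 1 of either genotype, as the macrophage markers were.

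Areg, the amphiregulin gene (chromosome 5, 91568641 to 91577458, plus strand), differed little between the genotypes. It stood at 277 and 290 CPM in the KO libraries, against 252 and 273 CPM in the WT libraries. The KO libraries lay just above the WT libraries, KO replicate 1 exceeding WT replicate 2 by less than the distance between the WT replicates. The means were 283 ± 9.19 CPM in KO and 262 ± 15.4 CPM in WT (SD, n = 2 each), a ratio of 1.08. The log2 fold change was 0.11 ± 0.09, with 0.14 within replicate 1 and 0.08 within replicate 2, and neither edgeR (adjusted p = 1.00) nor DESeq2 (1.00) called it. The 95% interval, from -0.11 to 0.33, holds ratios from 0.924 to 1.26 and so a small change in either direction. It lies below the interval of Csf1 (0.47 to 1.15). Both rest on 2 libraries per genotype whose spread may be technical, so a larger change between animals is not excluded.

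Hbegf, the heparin-binding EGF-like growth factor gene (chromosome 18, 36664583 to 36675459, minus strand), had 286 to 874 counts per library. It stood at 11.0 and 16.5 CPM in the KO libraries, against 10.6 and 12.5 CPM in the WT libraries. The groups overlap, because KO replicate 1 lies between the WT libraries, and the value that stands apart is KO replicate 2. The log2 fold change was 0.25 ± 0.22, with a 95% interval from -0.30 to 0.80 and values of 0.05 within replicate 1 and 0.40 within replicate 2. It turned to -0.08 without KO replicate 2, and no tool called it (adjusted p = 1.00 in edgeR and DESeq2).

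Areg and Hbegf were the 2 EGF receptor ligands with the most counts in these libraries, without regard to transcript length. Of the 11 ligands of the family in the list 7 were tested, 4 with a positive and 3 with a negative log2 fold change (median 0.11), and none passed edgeR or DESeq2. Nrg4, a neuregulin that signals through ErbB4, stood at 4.63 and 4.92 CPM in KO and 4.73 and 5.70 CPM in WT (-0.13 ± 0.20), and Tgfa, the TGF-alpha gene, at 3.10 and 3.52 CPM in KO and 2.98 and 3.11 CPM in WT (0.12 ± 0.24). The ligand genes Ereg and Egf had at most 86 counts in any library, and Epgn, Btc, Nrg1 and Nrg3 at most 7. Among the receptors, Erbb3 stood at 9.55 and 11.7 CPM in KO and 9.83 and 12.9 CPM in WT (-0.11 ± 0.19). Egfr, the receptor for both amphiregulin and Hbegf, had 4 and 41 counts in KO and 7 and 25 counts in WT, with more in the deeper replicate 2 libraries, which also held more stromal markers.

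Adam17, the protease that releases amphiregulin, Hbegf and membrane-bound Csf1 from the cell surface, was higher in KO than in WT. It stood at 244 and 266 CPM in the KO libraries, against 174 and 166 CPM in the WT libraries, and the groups lay far apart relative to their spread. Its log2 fold change was 0.59 ± 0.09, called by DESeq2 (adjusted p = 8.02e-04) and in the authors' deposited table (0.0256) but not by edgeR (adjusted p = 0.839), and DESeq2 lost the call without any 1 of the 4 libraries (at least 0.145). Rhbdf2, which encodes the iRhom2 protein that brings ADAM17 to the surface, stood at 19.6 and 21.9 CPM in KO and 17.9 and 18.6 CPM in WT (0.18 ± 0.11, adjusted p = 1.00), and its relative Rhbdf1 had -0.37 ± 0.30. Adam10, a related sheddase, had 0.02 ± 0.13. Timp3, the inhibitor of ADAM17, stood at 3.19 and 7.30 CPM in KO and 2.57 and 3.41 CPM in WT (0.81 ± 0.43, adjusted p = 1.00), higher in replicate 2 of both genotypes. Cd9, a tetraspanin that associates with the Hbegf precursor, had -0.12 ± 0.25. Of the 6 tested genes in this list of sheddase cofactors, 4 had a positive and 2 a negative log2 fold change (median 0.19), and none passed edgeR or DESeq2. Cd82 had the most counts and the lowest p of these, at 410 and 412 CPM in KO and 341 and 354 CPM in WT (0.24 ± 0.08, edgeR unadjusted p = 0.0278).

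**Figure D3:**
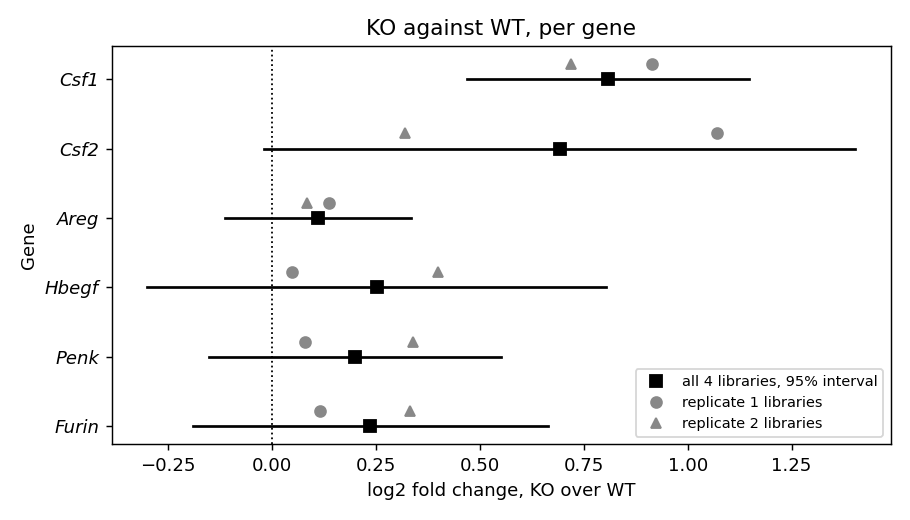
Log2 fold change of KO over WT (horizontal axis) for the 6 genes (rows), with black squares and lines for all 4 libraries and the 95% interval, and grey circles and triangles for the ratio within replicate 1 and within replicate 2. Of the 6 intervals, that of Csf1 alone (0.47 to 1.15) lies wholly above 0. Every within-replicate value is above 0, the pairs being libraries of equal number, which the labels do not tie together.

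Penk, the proenkephalin gene (chromosome 4, 4060678 to 4065966, minus strand), was expressed in all libraries. It stood at 257 and 238 CPM in the KO libraries, against 243 and 188 CPM in the WT libraries. The groups overlap, since WT replicate 1 lies between the KO libraries, and WT replicate 2 is the low value. The means were 247 ± 13.1 CPM in KO and 215 ± 38.7 CPM in WT (SD, n = 2 each). Its log2 fold change was 0.20 ± 0.14, with a 95% interval from -0.15 to 0.55 and values of 0.08 within replicate 1 and 0.34 within replicate 2 (adjusted p = 1.00 in edgeR and DESeq2). It was 0.03 without WT replicate 2 and 0.39 without WT replicate 1 in edgeR, so the size of the difference rests on the WT libraries. Penk was lower in replicate 2 than in replicate 1 in both genotypes, by 0.11 in KO and by 0.37 in WT on the log2 scale.

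Of the 3 opioid precursor genes found in the table, Penk had the most counts. Pomc, the precursor of beta-endorphin, had 58 and 160 counts in KO and 51 and 155 counts in WT (0.18 ± 0.35), and Pnoc, the nociceptin precursor, had 8 counts in WT replicate 2 and 0 in the other libraries. Of the 4 opioid receptor genes, only Oprm1, the mu receptor, was tested, at 6.03 and 6.17 CPM in KO and 5.96 and 7.54 CPM in WT (-0.15 ± 0.19). The delta and kappa receptor genes Oprd1 and Oprk1 had at most 5 counts in any library. Enkephalins are known to be cut out by prohormone convertases and carboxypeptidase E and broken down by peptidases such as neprilysin. Pcsk1, which encodes prohormone convertase 1, stood at 29.1 and 23.9 CPM in KO and 22.5 and 24.5 CPM in WT (0.17 ± 0.13), whereas Pcsk2 had 2 counts in WT replicate 1 and 0 in the other libraries. The carboxypeptidase gene Cpe stood at 9.91 and 6.72 CPM in KO and 8.83 and 7.66 CPM in WT (0.01 ± 0.23), and Mme, which encodes neprilysin, had at most 9 counts in any library. Of the 7 tested processing genes 6 had a positive log2 fold change and 1 a negative (median 0.27), and none passed edgeR or DESeq2. The negative one, Cpd, had the most counts of the list, at 302 and 262 CPM in KO and 338 and 310 CPM in WT (-0.20 ± 0.11). The median was the value of Anpep, which had only 17 to 23 counts per library.

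Furin (chromosome 7, 87534080 to 87550322, minus strand) had 14173 to 41037 counts per library. The level was 572 and 776 CPM in the KO libraries, against 528 and 616 CPM in the WT libraries. The groups overlap, since KO replicate 1 lies between the WT libraries, and KO replicate 2 is the high value. The means were 674 ± 145 CPM in KO and 572 ± 62.6 CPM in WT (SD, n = 2 each). A log2 fold change of 0.24 ± 0.17 resulted, with a 95% interval from -0.19 to 0.66 and values of 0.12 within replicate 1 and 0.33 within replicate 2 (adjusted p = 1.00 in edgeR and DESeq2). Without KO replicate 2 it was -0.0015, so the difference rests on that library. Furin, Hbegf, Csf1 and Areg were each higher in replicate 2 than in replicate 1 in both genotypes. On the log2 scale this was 0.44 in KO and 0.22 in WT for Furin and 0.58 in KO and 0.23 in WT for Hbegf. For Csf1 it was 0.12 in KO and 0.32 in WT, and for Areg 0.07 in KO and 0.12 in WT. The stromal and endothelial markers and Igj were also higher in replicate 2, and their part was not tested.

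Of the 9 proprotein convertase genes 8 were tested, 6 with a positive and 2 with a negative log2 fold change (median 0.20), and none passed edgeR or DESeq2. Pcsk7, a convertase related to furin, stood at 56.8 and 60.6 CPM in KO and 57.0 and 60.4 CPM in WT (0.00 ± 0.10), and Mbtps1, which encodes the site-1 protease, at 146 and 125 CPM in KO and 157 and 140 CPM in WT (-0.13 ± 0.12). Of 10 listed genes of T cell proteins that convertases cut or that hold such proteins, 5 had a positive and 5 a negative log2 fold change (median -0.01). Tgfb1, whose product furin matures, stood at 69.5 and 61.1 CPM in KO and 80.6 and 55.0 CPM in WT (-0.05 ± 0.20), and Lrrc32, which encodes the GARP protein that holds latent TGF-beta on Treg cells, at 418 and 485 CPM in KO and 444 and 451 CPM in WT (0.01 ± 0.10). DESeq2 called Adam17, given above, and Itgae, the integrin alpha chain CD103, which was lower at 111 and 93.2 CPM in KO, against 202 and 158 CPM in WT (-0.82 ± 0.16, adjusted p = 0.00120 in DESeq2 and 0.882 in edgeR). The authors' deposited table gives Itgae an adjusted p of 7.77e-06. Its DESeq2 call was lost without KO replicate 2 and without WT replicate 1, and kept without KO replicate 1 and without WT replicate 2.

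**Figure D4:**
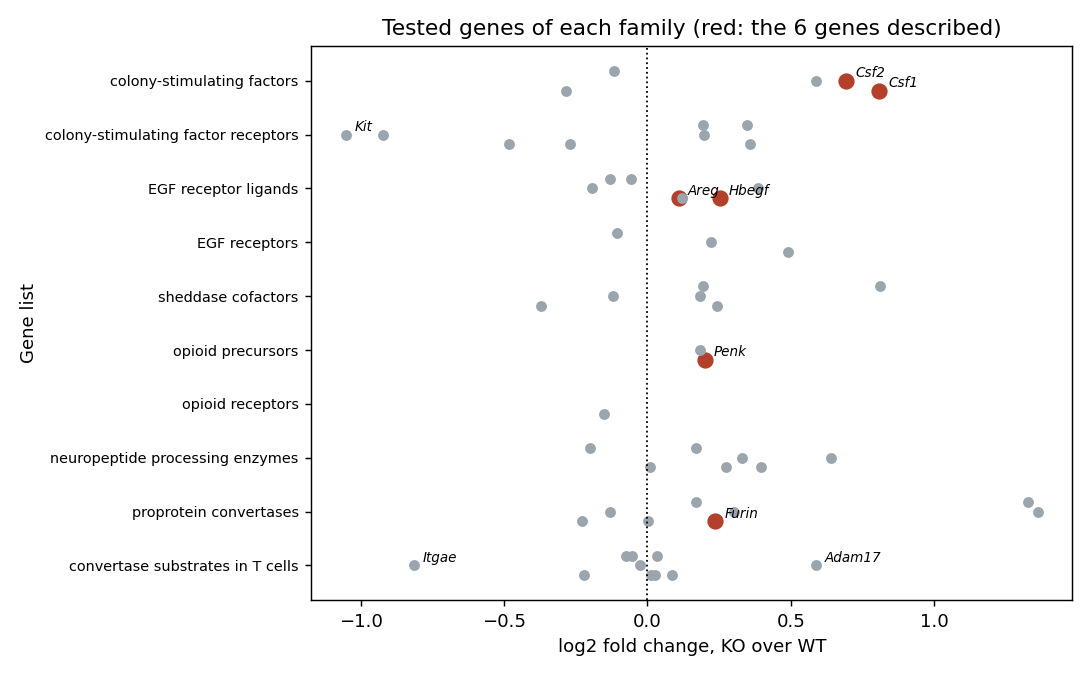
Log2 fold change of KO over WT (horizontal axis) for the tested genes of 10 family lists (rows), with Csf1, Csf2, Areg, Hbegf, Penk and Furin in red and other genes in grey, the vertical offset within a row having no meaning. Most grey points lie close to 0. Farthest from 0 are the convertase genes Pcsk5 (1.36) and Pcsk6 (1.33), which had at most 98 counts in any library and were not called. The medians of the lists, which include the red genes, lie between -0.15 and 0.59. Kit (-1.05), Itgae (-0.82) and Adam17 (0.59) are the named genes that DESeq2 called beside Csf1.

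Among other growth factor genes, none passed edgeR or DESeq2. Of 21 listed genes 15 were tested, 9 with a positive and 6 with a negative log2 fold change (median 0.06). Pdgfb, the platelet-derived growth factor B gene, had the lowest p, at 10.9 and 11.1 CPM in KO against 6.81 and 7.02 CPM in WT. The libraries of each genotype were close and the groups lay apart, with a log2 fold change of 0.67 ± 0.13 (edgeR unadjusted p = 0.00307, adjusted p = 0.952; DESeq2 adjusted p = 0.722), which neither tool called. Lif, the leukemia inhibitory factor gene, stood at 33.7 and 35.4 CPM in KO and 30.2 and 32.8 CPM in WT (0.13 ± 0.10), and Bmp7, a bone morphogenetic protein gene, at 26.9 and 29.9 CPM in KO and 23.3 and 26.9 CPM in WT (0.17 ± 0.12). Osm, the oncostatin M gene, had 0.11 ± 0.13, and Vegfa, the vascular endothelial growth factor gene, had -0.16 ± 0.25.

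Genes known to mark or drive the tissue repair type of Treg cell were likewise split. Of 20 listed genes 19 were tested, 11 with a positive and 8 with a negative log2 fold change (median 0.02), none passed edgeR, and Itgae alone passed DESeq2. Ccr8, a chemokine receptor gene of tissue Treg cells, stood at 319 and 297 CPM in KO and 252 and 242 CPM in WT (0.32 ± 0.09, edgeR unadjusted p = 0.0125, adjusted p = 1.00). Pparg, a nuclear receptor gene of tissue Treg cells, stood at 6.26 and 7.42 CPM in KO and 4.02 and 4.76 CPM in WT (0.64 ± 0.20, edgeR unadjusted p = 0.0220, adjusted p = 1.00). Il1rl1, the gene of the IL-33 receptor ST2 through which amphiregulin production is known to be stimulated, stood at 947 and 670 CPM in KO and 740 and 527 CPM in WT (0.35 ± 0.23, adjusted p = 1.00). Its groups overlap, and it was lower in replicate 2 than in replicate 1 in both genotypes. Il18r1, the receptor gene for IL-18, another cytokine known to stimulate amphiregulin, stood at 111 and 94.8 CPM in KO and 137 and 119 CPM in WT (-0.32 ± 0.13, edgeR unadjusted p = 0.0493, adjusted p = 1.00).

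Among 7520 other genes with an average of at least 4 on the log2 CPM scale, the pattern over the 4 libraries nearest to that of Csf1 was that of Serpina3g, a serine protease inhibitor gene, at a Euclidean distance of 0.0906 between the centred log2 levels. It stood at 180 and 206 CPM in KO and 101 and 130 CPM in WT. Next was Chsy1, a chondroitin sulfate synthase gene, at a distance of 0.143, with 94.8 and 102 CPM in KO and 56.5 and 64.2 CPM in WT. For Csf2 the nearest were the eotaxin receptor gene Ccr3 (0.240) and the transporter gene Slc37a2 (0.288), farther than for any other of the 6 genes. The nearest to Areg were Rhot2 and Thoc4 (0.00965 and 0.0162), to Hbegf Etaa1 and C330027C09Rik (0.0279 and 0.0298), to Penk Fam108c and Stat3 (0.0210 and 0.0236) and to Furin Egln1 and Impdh1 (0.0235 and 0.0382). With 4 libraries, these distances are a description and no more.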

How the data were processed

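RNA-seq libraries of sorted Treg cells were analysed, 2 KO and 2 WT, each column being matched to its sample by title. The deposited table holds raw counts, which are whole and not normalized, made by the authors from 50 bp single-end reads of RNA depleted of ribosomal RNA, per the labels' protocols. The authors' adjusted p-value per gene stands in the same deposited table; it does not name its comparison, taken here as KO against WT. The tools and build named are TopHat2, DESeq and mm9, per the submitters' processing notes. How reads were counted, with which annotation and whether by strand is not given in the sources used here.

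KO was tested against WT with edgeR 4.0.16 (R 4.3.3): filterByExpr, TMM scaling, a quasi-likelihood F-test with no covariate, and Benjamini-Hochberg adjustment over 14274 genes at 0.05. Standard errors and 95% intervals follow from its F statistic. Alternatives were DESeq2 1.42.0, limma 3.58.1 (voom), other scalings and filters, robust estimation, the newer quasi-likelihood method, a replicate block and leaving out each library. DESeq2 without single libraries was added after seeing the data. Within-replicate ratios were taken on log2 CPM (prior count 2), and summed marker CPM are per library total. The scripts were tested on simulated data.

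The 6 genes and all lists were chosen with earlier results of these data known. The genes named are these 6, the listed genes and markers, and the 2 genes nearest in pattern to each.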

Additional observations from a re-analysis of the deposited data

How the results depend on the processing

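Under the 17 alternatives to the main test, the log2 fold change of Csf1 ran from 0.66 to 0.98, of Csf2 from 0.49 to 0.91, of Areg from 0.05 to 0.17 and of Penk from 0.02 to 0.40, each positive throughout. Csf1 passed an adjusted p under 0.05 in 5 of them: with no filter on low counts (log2 fold change 0.80, adjusted p = 0.00308), in DESeq2 (0.81), with the replicate number as a block (0.81), in DESeq2 without KO replicate 1 (0.86) and in DESeq2 without WT replicate 2 (0.97). The other 5 genes passed in none, and the number of the 6 genes called was 1 in those 5 alternatives and 0 in the rest. Furin turned to -0.0015 in edgeR without KO replicate 2, and Hbegf to -0.077 in edgeR and -0.073 in DESeq2 without that library. Leaving out single libraries, Furin ran from -0.0015 to 0.43, Hbegf from -0.077 to 0.50, Penk from 0.02 (DESeq2 without WT replicate 2) to 0.40 (DESeq2 without WT replicate 1) and the genes called from 0 to 2 in edgeR and from 7 to 29 in DESeq2 (7, 14, 22 and 29). The genes called were 0 in the main test, 48 in DESeq2, 52 with no filter and 458 with the replicate block. The cause was not tested.

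Results of the replicate block are given only in this section because nothing in the labels says that equal numbers share an animal, litter or day. The ratios within a replicate given above pair libraries by the same numbers and share this limit. Deviations of same-numbered libraries correlated at 0.641 across 14274 genes. With the block, which leaves 1 residual degree of freedom, the adjusted p was 5.05e-10 for Csf1, 0.0534 for Furin, 0.0795 for Penk, 0.146 for Csf2, 0.384 for Hbegf and 0.476 for Areg. Of the 10 macrophage and monocyte markers tested, 4 were called lower with the block, Csf1r (adjusted p = 0.00396), Emr1 (0.00132), C1qa (5.82e-05) and C1qb (2.08e-04). Of the 8 epithelial markers tested, 3 were called higher. These counts stand beside 458 genes called with the block among all 14274 tested. They rest on pairing by replicate number, which the labels do not give. Depth limits Csf2, with 56 to 181 counts per library, the fewest among the 6 genes.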
